A study of Mus musculus with 24 samples.

Results

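Control organoids were compared with freshly sorted control AT2 cells, the surfactant-making cells of the lung alveolus, in mice without the let-7 deletion that the series studies. The comparison holds 5 of the 24 mouse libraries of the series, grouped by their labels and matched by gene symbol: 2 libraries of organoids and 3 of fresh cells. That this comparison was made was decided with earlier results of these data known. All 5 came from mice of the genotype Sftpc-CreER/+; R26-tdT/+ that had received tamoxifen. In this genotype the Sftpc gene drives a tamoxifen-activated Cre recombinase, which switches on the tdTomato reporter, so driver, reporter and drug are shared by both groups. Each library of fresh AT2 cells was a flow-sorted pool of 3 mice taken after 6 days of tamoxifen. The organoids, from 2 mice, were grown for 14 days as 3D cultures in AMM medium, starting after the same 6 days of tamoxifen. Knockout libraries (let7afd-/- in addition; 3 of AT2 cells, 2 of organoids) were used only to repeat the comparison. The sources used here give neither the sort gates nor whether support cells shared the culture. Culture, sort, mice per library, any difference in the sex of the mice (not in the labels) and the table of origin change together between the groups and cannot be told apart, and the p-values measure only the spread between these few libraries.

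AT2 cells make, store and recycle surfactant, a lipid and protein film that keeps the alveoli open, and they are the progenitors of the flat AT1 cells that line the air space. During repair they pass through an intermediate state rich in Krt8. Organoids are small hollow or solid spheres that such progenitors form in a gel. Outside the alveolus, the airway is lined by secretory and ciliated cells above basal cells, which hold Trp63 and Krt5.

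Values are TPM (transcripts per 1000000), which the authors scaled to the same sum in each library, so levels are shares of a library and sequencing depth is unknown. At least 1 TPM was held by 11815 to 12120 genes in the AT2 libraries and by 12272 and 12482 in the organoids. Between 2 libraries of AT2 cells, 97 to 188 of 12962 genes differed more than 2-fold (0.748 to 1.45%), and between both organoids 878 did (6.77%). The organoids are therefore given one by one, organoid 1 first. Ribosomal protein genes took 8.85 to 9.08% of all TPM in AT2 cells but 19.7% and 23.2% in the organoids. Small nucleolar and RNase RNAs, short transcripts without a poly(A) tail, took at most 0.00128% in AT2 cells and 0.119% and 0.168% in the organoids. Replication histone genes, whose transcripts also lack that tail, went the other way, from 0.0492 to 0.0513% in AT2 cells to 0.0266% and 0.0240% in the organoids. Whether these differences in library make-up touch other genes was not tested. Y-linked genes were higher in the organoids (4 of 4 tested): Uty, a histone demethylase, was at 6.97, 7.29 and 6.67 TPM in AT2 cells and 20.6 and 23.6 TPM in the organoids, and Eif2s3y, a translation factor, at 51.5, 45.5 and 35.3 TPM and 93.1 and 119.6 TPM. Xist, the transcript of the inactive X chromosome, was at or below 0.324 TPM in all 5 libraries; the part of sex in other results was not tested.

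The labels of the AT2 libraries matched the markers. Sftpc was the highest gene of each AT2 library, and the 37 listed AT2 genes, 4 of them surfactant protein genes, summed to 303655, 285626 and 290669.8 TPM there. They still summed to 93110.1 TPM in organoid 1 and 36278 TPM in organoid 2. These sums include Lyz1, a lysozyme gene that rose against the list, to 23400.4 and 12600.9 TPM. The listed genes of airway secretory cells summed to 22341, 11618 and 13613 TPM in AT2 cells. In the organoids they summed to 24299 and 38157 TPM, which in organoid 2 was above the sum of the AT2 genes. The leukocyte marker Ptprc was at 3.37, 0.999 and 2.24 TPM in AT2 cells and 0.0830 and 0.0566 TPM in the organoids, against 80.7 to 87.5 TPM in whole lungs of control mice. The endothelial marker Pecam1 was at 9.48, 3.09 and 2.52 TPM and 0.0971 and 0.0981 TPM, against 543 to 581 TPM in whole lung. Epcam, an epithelial adhesion molecule, was at 178, 186 and 171 TPM in AT2 cells and 380.3 and 673 TPM in the organoids.

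Of 12962 genes tested, 5134 (39.6%) were higher and 3147 (24.3%) lower in organoids than in AT2 cells at an adjusted p under 0.05 (limma on log2(TPM + 1), Benjamini-Hochberg), and 2595 and 1640 of them by more than 2-fold. The groups did not overlap for 10045 genes (77.5%). The counts of members below are set beside these 39.6% and 24.3%. The lists were chosen with earlier results of these data known, so their counts describe the members and are no test. Members under 1 TPM in the AT2 cells, such as Trp63 and Egln3, passed the filter of 1 TPM in 2 libraries only through the organoids. For such genes only a rise could be called. Over all genes the median was 0.21 on the log2 scale, and surfactant protein genes took 18.4 to 19.8% of all TPM in AT2 cells but 4.28% and 1.26% in the organoids. After median-ratio scaling the median was 0.01 and higher genes made up 49.5% of the calls in place of 62.0%. With quantile normalization that share was 49.2%, and without the 77 most abundant genes 50.4%. Of the calls made here, 0, 3 and 0 were called in the opposite direction under these scalings.

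Among the 15 largest rises, Cd177, a surface protein best known from neutrophils (chr7:24743983-24760311, GRCm38), stood at 0.448, 0.0826 and 0.205 TPM in AT2 cells and at 2949.9 and 1025 TPM in organoids 1 and 2 (log2 fold change 10.46, SE 0.43, adjusted p = 3.68e-05). Reg3g, a secreted antibacterial lectin of mucosal epithelia (chr6:78466269-78468872), went from 10.8, 3.56 and 9.20 TPM to 2695 and 11471 TPM (log2 fold change 9.41, SE 0.68, adjusted p = 0.000171). Pthlh, a parathyroid hormone-like peptide, was at 0.0752, 0.194 and 0.277 TPM and then 308 and 496 TPM. The cornified envelope genes Sprr2a1, Sprr2a2 and Sprr2a3 reached 260 to 634 TPM in the organoids from at most 1.78 TPM, but they are near-identical copies whose reads can be split between them. Scgb3a1, Bpifa1, Agr2, Aqp3, Krt5, Saa3, Egln3, Rmrp and Snord15b completed the 15 largest rises.

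Among the 15 largest falls, Fosb, a subunit of the AP-1 transcription factor (chr7:19302696-19310051), was at 534, 1136 and 958 TPM in AT2 cells and at 0.402 and 0.403 TPM in the organoids (log2 fold change -9.22, SE 0.31, adjusted p = 2.81e-05). Chia1, a secreted acidic chitinase (chr3:106113229-106132120), was at 814, 660.5 and 671 TPM and then 0.497 and 0.872 TPM (log2 fold change -8.73, SE 0.15, adjusted p = 7.06e-06). Mme, the membrane peptidase neprilysin, went from 238, 213 and 217 TPM to 0.308 and 0.0808 TPM. Hc, the gene of complement factor C5, went from 2428, 2228 and 2393 TPM to 24.7 and 4.99 TPM, and Apoe, a lipid carrier, from 944, 1038 and 1101 TPM to 7.87 and 4.18 TPM. Cst8 and Prmt8 were listed at 0 in both organoids after 104.5 to 127.6 and 71.7 to 99.0 TPM in AT2 cells. Itih4, Cox6a2, Gem, Nkd1, Bex2, Acoxl, H2-Aa and Kcne2 were the other 8. A fold change of TPM + 1 understates the change of a gene near 0, so the values themselves carry more than the fold for these genes.

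**Figure D1:**
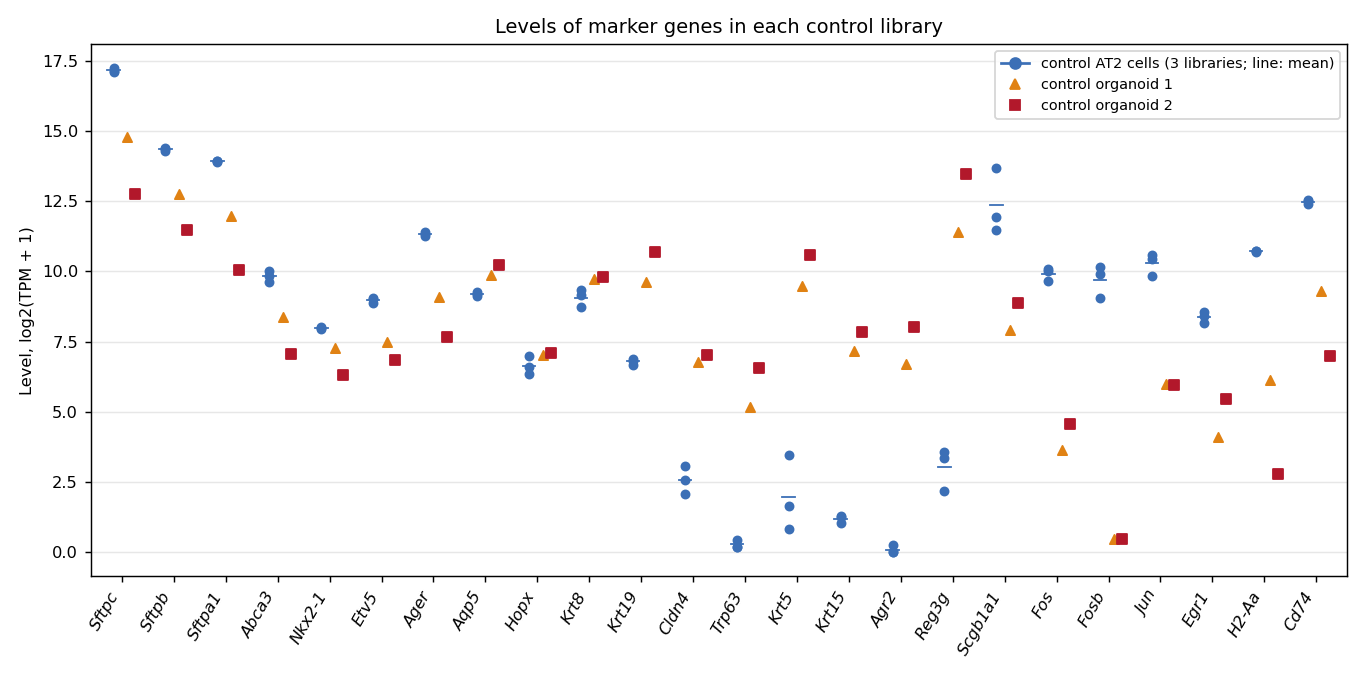
Levels of 24 marker genes in each control library, as log2(TPM + 1) on the vertical axis; circles are the 3 AT2 libraries with a line at their mean, the triangle is organoid 1 and the square organoid 2. AT2 genes sit lower in both organoids and lowest in organoid 2, while Trp63, Krt5, Krt15, Agr2 and Reg3g sit above all AT2 libraries.

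Surfactant and AT2 identity genes fell in the organoids, the surfactant protein genes without being lost. Some other members came near 0 in organoid 2. Bex2 went from 550, 463 and 313 TPM to 8.01 and 0.950 TPM, and Acoxl from 391, 340 and 279 TPM to 8.74 and 0.899 TPM. Of 36 listed genes tested, 30 fell and 2 rose, with a median of -1.88 against 0.21 for all genes. Without AT2 library 1, 2 or 3 the falls were 26, 25 and 24, with 1 rise each time. Sftpc, the gene of surfactant protein C (chr14:70520949-70524081), was at 155065, 143693 and 141750.1 TPM in AT2 cells, 28199 TPM in organoid 1 and 6935 TPM in organoid 2 (log2 fold change -3.39, SE 0.58, adjusted p = 0.00331). Its call did not hold with no filter on low genes (adjusted p = 0.119) or under quantile normalization (0.158). Sftpb, whose protein spreads the film, went from 21309, 21679 and 19907 TPM to 6942 and 2851 TPM (log2 fold change -2.23, SE 0.37, adjusted p = 0.00299). Sftpa1, a collectin of innate defence, was at 15730.3, 15251 and 15721 TPM and 3994 and 1066 TPM (log2 fold change -2.91, SE 0.52, adjusted p = 0.0039), and Sftpd, another collectin, at 6261, 6242 and 7048 TPM and 3672 and 1723 TPM (log2 fold change -1.37, SE 0.32, adjusted p = 0.0105). In each of these 4 genes both organoids lay below all AT2 libraries, and organoid 2 lay below organoid 1.

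Genes for the storage of surfactant followed the same order. Abca3, the lipid pump of the lamellar body, was at 927, 1024 and 784 TPM in AT2 cells and 336 and 134 TPM in the organoids (log2 fold change -2.09, SE 0.37, adjusted p = 0.00391). Lamp3, a lamellar body membrane protein, was at 2874, 2612 and 2640.1 TPM and 1202 and 431 TPM (log2 fold change -1.91, SE 0.40, adjusted p = 0.00747). Among the transcription factors, Nkx2-1, which specifies lung epithelium, fell from 249, 257 and 253 TPM to 153 and 77.9 TPM (log2 fold change -1.21, SE 0.27, adjusted p = 0.00895). Etv5, which maintains AT2 cells downstream of fibroblast growth factor, fell from 516, 526 and 464 TPM to 176 and 113 TPM (log2 fold change -1.82, SE 0.19, adjusted p = 0.000589). Cebpa, a regulator of lipid metabolism, was at 513, 523 and 467 TPM and 260.3 and 129.8 TPM (log2 fold change -1.44, SE 0.28, adjusted p = 0.00541). Foxa1 was one of the 2 listed genes that rose, from 64.9, 80.0 and 72.0 TPM to 90.0 and 150.4 TPM (log2 fold change 0.68, SE 0.22, adjusted p = 0.0369); it did not pass after median-ratio scaling (adjusted p = 0.123), without organoid 2 (0.114) or without any 1 of the AT2 libraries (0.067 to 0.107). Its relative Foxa2 was at 76.3, 67.0 and 76.1 TPM and 66.3 and 25.9 TPM, organoid 2 alone lying far below the rest.

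The lysozyme genes parted. Lyz2 fell from 49226, 45736 and 50568 TPM to 855 and 1657 TPM (log2 fold change -5.35, SE 0.30, adjusted p = 8.19e-05), and Lyz1 rose from 1676, 1440.5 and 1730.2 TPM to 23400.4 and 12601 TPM (log2 fold change 3.41, SE 0.28, adjusted p = 0.000227), becoming the highest gene of organoid 2. These neighbouring copies are alike in sequence, so how reads were divided between them is uncertain. Further large falls on the list were S100g, a calcium-binding protein (766, 750.1 and 739.6 TPM against 67.3 and 10.3 TPM), and Egfl6, a secreted matrix protein (682, 645 and 621 TPM against 77.3 and 22.1 TPM). Npc2, which carries cholesterol out of lysosomes, was at 2656, 2621 and 2817 TPM and 569 and 360.1 TPM.

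AT1 genes moved in both directions, with more falls than rises. Of 30 tested, 7 rose (23.3%, against 39.6% of all genes) and 14 fell (46.7%, against 24.3%), with a median of -0.36 against 0.21. Ager, a receptor that AT1 cells make in large amounts, fell from 2605, 2742 and 2462 TPM to 548 and 202 TPM (log2 fold change -2.96, SE 0.39, adjusted p = 0.00127). Igfbp2 fell from 16.7, 27.0 and 21.5 TPM to 1.27 and 1.00 TPM and the sodium channel subunit Scnn1b from 23.6, 23.9 and 28.4 TPM to 2.86 and 1.497 TPM. Aqp5, a water channel of AT1 cells and airway glands, rose from 557, 621 and 592 TPM to 949 and 1189 TPM (log2 fold change 0.85, SE 0.13, adjusted p = 0.00232). Hopx, a transcriptional cofactor of AT1 cells, was at 95.9, 127 and 80.5 TPM in AT2 cells and 129.7 and 137 TPM in the organoids and did not reach the threshold (log2 fold change 0.42, SE 0.19, adjusted p = 0.104). The risers Tspan8, Cav2, Pdpn and Vegfa are also made outside AT1 cells, and Pdpn did not pass without any 1 of the AT2 libraries (adjusted p 0.061 to 0.0761); Tspan8 reached 679 and 539.5 TPM from 85.9, 76.6 and 71.3 TPM.

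Of 40 genes listed for the Krt8-positive intermediate state, 25 rose and 7 fell (median 1.18, against 0.21 for all genes). Cldn4, a tight junction protein of this state, rose from 7.36, 3.22 and 4.97 TPM to 108 and 130.4 TPM (log2 fold change 4.33, SE 0.29, adjusted p = 0.000135). The keratin Krt19 rose from 102, 118 and 112 TPM to 784 and 1636 TPM (log2 fold change 3.34, SE 0.30, adjusted p = 0.000309) and its partner Krt18 from 333, 459 and 402 TPM to 818 and 1124 TPM (log2 fold change 1.28, SE 0.19, adjusted p = 0.00207). Krt8 itself was at 423, 645 and 566 TPM in AT2 cells and 840.1 and 893 TPM in the organoids (log2 fold change 0.69, SE 0.19, adjusted p = 0.0196). Both organoids exceeded all AT2 libraries, but this call is weak: Krt8 no longer passed under any of the 3 other scalings (adjusted p 0.05115 to 0.06303), with library weights, or without organoid 1, organoid 2 or AT2 library 3. Itga2, an integrin for collagen, was near 0 in AT2 cells and at 23.5 and 29.9 TPM in the organoids, and Fn1, fibronectin, went from 6.66, 2.47 and 3.23 TPM to 130.1 and 209.7 TPM. In the other direction, Cdkn1a, an inhibitor of the cell cycle that marks the state, fell from 169, 232 and 205 TPM to 87.5 and 131 TPM (log2 fold change -0.90, SE 0.21, adjusted p = 0.0111), a call that did not hold without organoid 1 (adjusted p = 0.0633). Many of the listed risers, Krt19, Anxa1, S100a6 and Sprr1a among them, are also made by airway and basal cells. Basal markers rose too, 12 of 12, or 11 after median-ratio scaling. Their summed level was 30.4 to 52.6 TPM in AT2 cells and 1740.1 and 3555 TPM in the organoids. The part of airway and basal cells in the Krt8-positive list was not tested.

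**Figure D2:**
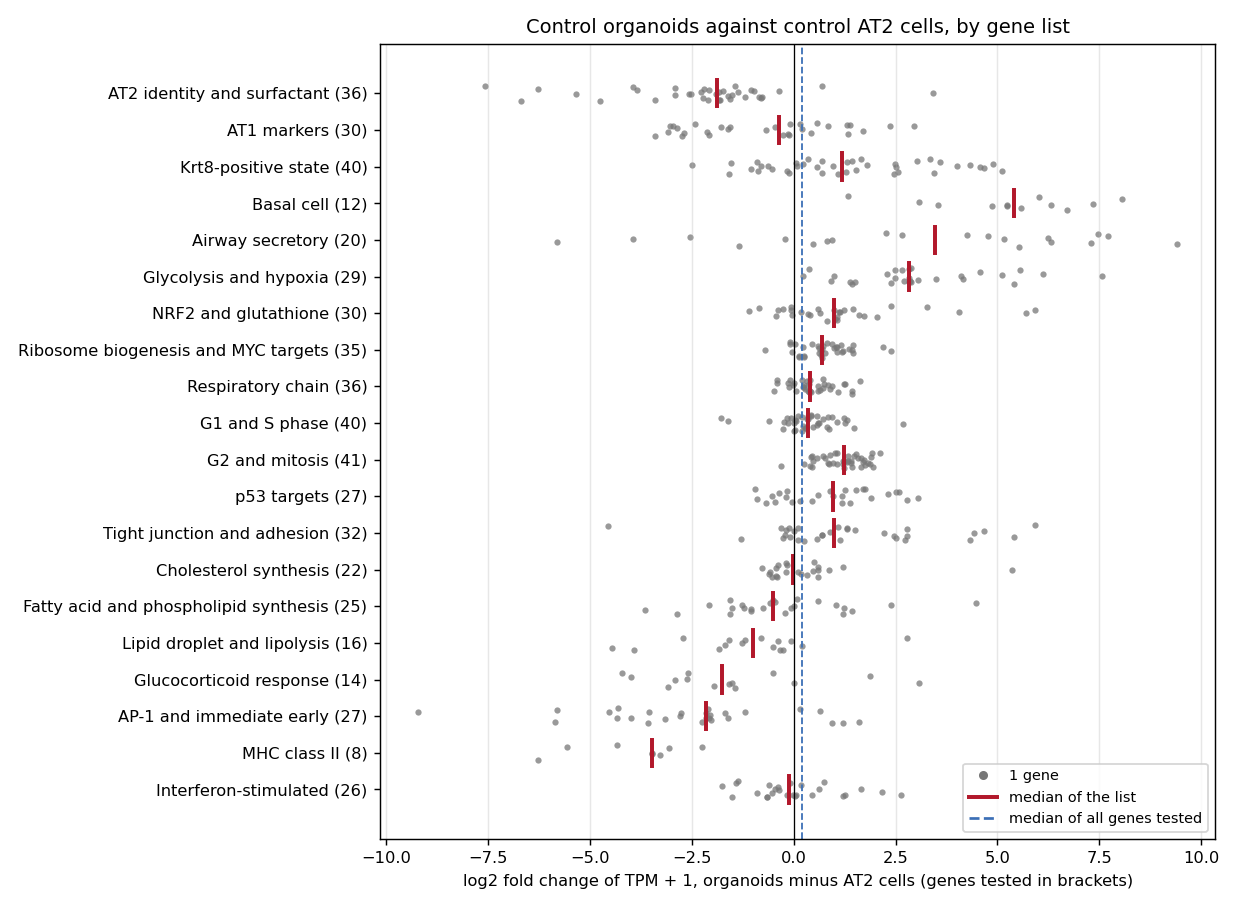
Log2 fold change of TPM + 1 of control organoids against control AT2 cells for the tested genes of 20 lists; each dot is 1 gene, the red bar is the median of the list and the dashed line the median of all genes (0.21). The Basal cell, Airway secretory and Glycolysis and hypoxia lists lie farthest to the right and the MHC class II and AP-1 lists farthest to the left.

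Markers of airway basal cells appeared in both organoids. All 12 of 12 listed genes rose, with a median of 5.41, the highest of the 20 lists plotted. After median-ratio scaling or quantile normalization 11 rose, and 11 also without any 1 of the AT2 libraries. Pdpn, which is on the AT1 list too, was the gene that did not pass there. Their summed level was 34.8, 30.4 and 52.6 TPM in AT2 cells, 1740.1 TPM in organoid 1 and 3555 TPM in organoid 2; whole lungs of control mice held 142 to 202 TPM. Trp63, the transcription factor of basal cells (chr16:25683763-25892102), went from 0.364, 0.136 and 0.145 TPM to 34.8 and 93.6 TPM (log2 fold change 5.59, SE 0.40, adjusted p = 0.000166). Like Aqp3, at 0.782, 0.287 and 1.07 TPM in AT2 cells, it passed the filter only through the organoids. For such members only a rise could be called, so the count of 12 is no test. Krt5, the keratin by which basal cells are usually identified (chr15:101707070-101712898), went from 2.10, 0.771 and 10.1 TPM to 720.5 and 1521 TPM (log2 fold change 8.06, SE 0.77, adjusted p = 0.000405). Krt15 and Krt17, keratins of the same layer, reached 144 and 228 TPM and 107 and 175 TPM from at most 2.27 TPM. Ngfr, a nerve growth factor receptor of basal cells, reached 15.4 and 61.5 TPM, and Krt14 58.3 and 77.0 TPM. In all of these genes organoid 2 was higher than organoid 1. Genes that anchor basal cells to their matrix rose beside them: Itgb4, an integrin of hemidesmosomes, from 0.919, 0.648 and 0.919 TPM to 40.6 and 140.3 TPM, and Col17a1, its collagen partner, from 0.300, 0.0783 and 0.608 TPM to 21.7 and 92.0 TPM. These bulk values cannot tell a few basal cells from many cells that each make a little of these transcripts, nor cells carried in with the sort from cells that arose in culture.

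Airway secretory genes split. Of 20 tested, 12 rose and 4 fell (median 3.46). Scgb1a1, the secretoglobin of club cells, fell from 13077, 2818 and 3894 TPM to 240.0 and 474 TPM (log2 fold change -3.95, SE 0.67, adjusted p = 0.00326); AT2 library 1 stood apart from the other AT2 libraries. Retnla fell from 608, 242 and 2059 TPM to 8.41 and 14.5 TPM. In contrast Scgb3a1, a secretoglobin of upper airway cells, rose from 106, 13.5 and 44.5 TPM to 7670.4 and 9959.9 TPM (log2 fold change 7.72, SE 0.77, adjusted p = 0.000466), and the antimicrobial protein Bpifa1 from 119.6, 14.0 and 73.4 TPM to 10029 and 8127 TPM (log2 fold change 7.46, SE 0.84, adjusted p = 0.000683). Agr2, a disulfide isomerase needed for mucin folding, rose from 0.191, 0 and 0 TPM to 103 and 259.9 TPM, and the mucin Muc5b from 0.928, 0.159 and 0.504 TPM to 31.4 and 24.6 TPM. Pigr, which carries antibodies across epithelium, reached 527 and 645 TPM and Sox2, a transcription factor of airway epithelium, 60.3 and 135 TPM from 0.990, 0.873 and 1.06 TPM. Of 11 genes of motile cilia 4 rose and 3 fell. Their sum was lower in the organoids (87.8 and 147.5 TPM) than in AT2 cells (294 to 442 TPM), and none of the rises passed without organoid 2 or AT2 library 2, and 1 without AT2 library 3.

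Glycolysis and hypoxia genes rose together, with little difference between both organoids for most of the enzymes. Of 29 listed genes, 27 rose and 0 fell (median 2.83), and the list summed to 3555, 3646 and 3762 TPM in AT2 cells against 24871 and 26879 TPM in the organoids. Hypoxia-inducible factor, a transcription factor that is stable when oxygen is low, induces many of these genes through the core sequence ACGTG. Pgk1, phosphoglycerate kinase, rose from 138, 139.8 and 147 TPM to 2358 and 2729.7 TPM (log2 fold change 4.16, SE 0.11, adjusted p = 2.09e-05). Eno1, enolase, rose from 96.8, 96.5 and 116 TPM to 1948 and 1655 TPM (log2 fold change 4.11, SE 0.13, adjusted p = 2.81e-05), and Gapdh, often taken as a reference gene, from 739.6, 719.8 and 814 TPM to 6087 and 6505 TPM (log2 fold change 3.05, SE 0.12, adjusted p = 3.27e-05). The platelet-type phosphofructokinase Pfkp rose from 9.53, 9.002 and 8.66 TPM to 112 and 113 TPM. The glucose transporter Slc2a1 went from 29.5, 32.9 and 35.5 TPM to 240.2 and 235 TPM, and the lactate exporter Slc16a3 from 2.44, 1.32 and 1.88 TPM to 236 and 164 TPM (log2 fold change 6.12, SE 0.23, adjusted p = 3.07e-05). Hexokinase Hk2 and the prolyl hydroxylase P4ha1 were the members that did not pass.

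Genes of oxygen sensing and acid balance differed more between the organoids. Egln3, a prolyl hydroxylase that marks hypoxia-inducible factor for destruction (chr12:54178981-54203860), went from 0.732, 0.302 and 0.322 TPM to 164 and 449.8 TPM (log2 fold change 7.57, SE 0.41, adjusted p = 8.18e-05). The carbonic anhydrase Car9 went from 0.867, 0.910 and 0.353 TPM to 43.8 and 139.9 TPM (log2 fold change 5.55, SE 0.47, adjusted p = 0.000275), Adm, the vasodilator adrenomedullin, from 1.53, 0.988 and 2.04 TPM to 45.7 and 157 TPM, and Bnip3, a mitophagy receptor, from 107, 112 and 104 TPM to 597 and 1047 TPM. Vegfa, the endothelial growth factor, rose from 101, 149 and 133 TPM to 296 and 366 TPM (log2 fold change 1.38, SE 0.19, adjusted p = 0.00149). In organoid 2 Egln3, Car9, Car12, Adm and Ndrg1 were each over 2-fold above organoid 1, while the other 24 genes were not.

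**Figure D3:**
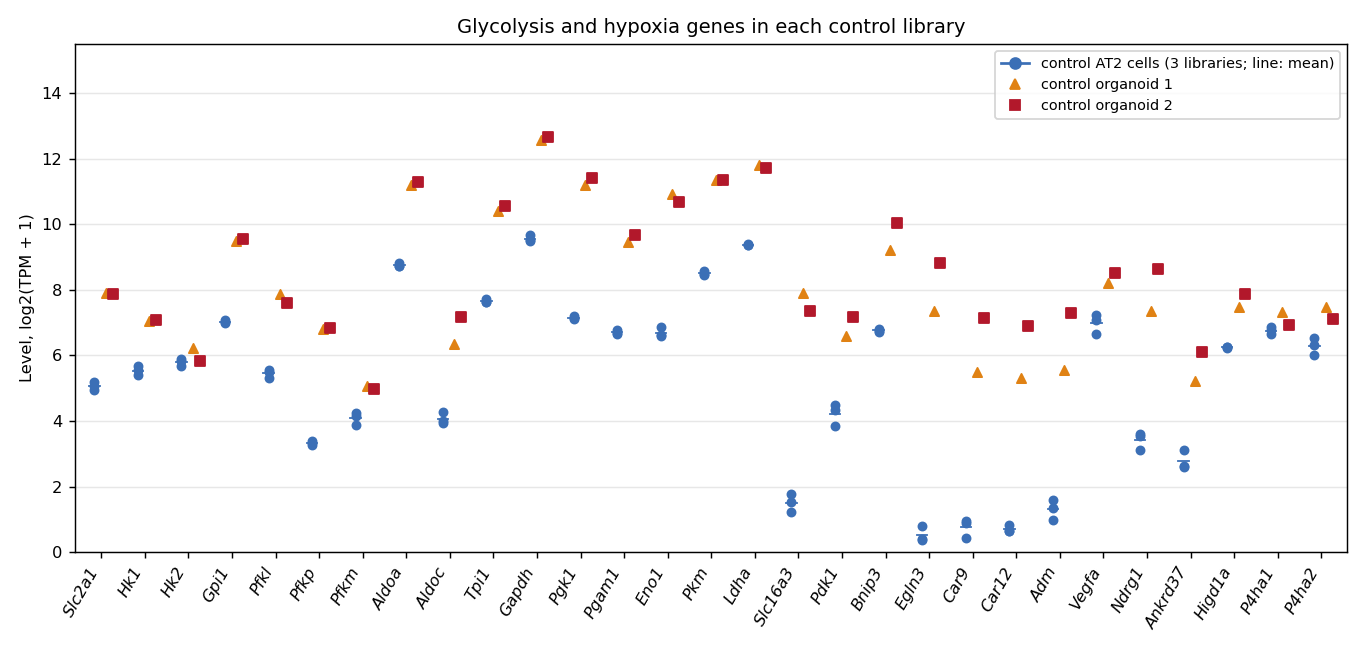
Levels of the 29 glycolysis and hypoxia genes in each control library, as log2(TPM + 1); circles are the 3 AT2 libraries with a line at their mean, the triangle is organoid 1 and the square organoid 2. Both organoids lie above all AT2 libraries for every gene but Hk2, and Egln3, Car9, Car12, Adm and Ndrg1 differ most between the organoids.

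The promoters of the 3 members with the largest rises whose window holds ACGTG are shown because these genes moved together. Each runs from 250 bases before to 50 after the gene's start, from RefSeq on GRCm38.p6, on the strand of the gene, with ACGTG or its reverse complement CACGT in capitals.
Egln3 (chr12:54203825-54204124, minus strand): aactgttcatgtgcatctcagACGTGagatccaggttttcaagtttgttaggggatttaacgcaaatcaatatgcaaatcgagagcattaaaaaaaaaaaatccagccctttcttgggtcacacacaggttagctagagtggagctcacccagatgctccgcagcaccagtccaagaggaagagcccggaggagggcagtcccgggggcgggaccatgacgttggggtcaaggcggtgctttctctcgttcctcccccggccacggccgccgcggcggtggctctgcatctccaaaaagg
Slc16a3 (chr11:120948817-120949116, plus strand): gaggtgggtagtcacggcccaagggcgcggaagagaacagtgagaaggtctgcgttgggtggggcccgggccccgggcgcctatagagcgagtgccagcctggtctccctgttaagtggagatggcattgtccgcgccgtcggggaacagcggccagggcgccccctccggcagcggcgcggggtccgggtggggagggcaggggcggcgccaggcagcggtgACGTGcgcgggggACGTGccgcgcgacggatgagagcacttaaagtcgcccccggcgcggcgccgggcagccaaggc
Car9 (chr4:43506776-43507075, plus strand): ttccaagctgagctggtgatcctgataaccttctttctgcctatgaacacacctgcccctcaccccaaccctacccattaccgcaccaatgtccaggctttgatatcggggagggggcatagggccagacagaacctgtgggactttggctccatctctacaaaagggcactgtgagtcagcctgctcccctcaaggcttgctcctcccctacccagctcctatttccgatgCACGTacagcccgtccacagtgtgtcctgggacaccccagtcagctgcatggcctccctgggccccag
The table held windows for 28 of the 29 listed genes. Of their 41 windows 22 (53.7%) held the motif on either strand, in 20 genes. It was present in 19.6% of all 32851 windows and in 25.3% of the 12936 windows of genes tested here. ACGTG also lies within CACGTG, the E-box of other factors, and a match shows only that the letters are present.

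Genes of growth metabolism rose more modestly. Of 35 genes of ribosome biogenesis and MYC targets 23 rose and 1 fell (median 0.69). Npm1, a nucleolar chaperone, went from 334, 328 and 316 TPM to 1404 and 1574 TPM (log2 fold change 2.19, SE 0.10, adjusted p = 6.06e-05). Myc itself was at 6.67, 13.9 and 15.4 TPM and 19.0 and 27.3 TPM, short of the threshold (log2 fold change 0.95, SE 0.36, adjusted p = 0.0571). Of 36 respiratory chain genes 24 rose and 3 fell (median 0.39), and 15 rose and 5 fell after median-ratio scaling. Without AT2 library 2 the counts were 18 and 0, and without AT2 library 3 they were 20 and 1, while without AT2 library 1 or organoid 1 the falls were 2. Cox7b, a subunit of cytochrome oxidase, rose from 124, 125 and 129.5 TPM to 407 and 382 TPM (log2 fold change 1.64, SE 0.088, adjusted p = 8.07e-05). Relative to the shift of 0.21 this list moved little, against 2.83 for glycolysis and hypoxia.

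Antioxidant genes that respond to the transcription factor NRF2 also rose: 18 of 30, with 2 falls (median 1.00). Slc7a11, the cystine importer that feeds glutathione synthesis, went from 0.240, 0.262 and 0.401 TPM to 101 and 58.6 TPM (log2 fold change 5.91, SE 0.24, adjusted p = 3.87e-05). Gpx2, a glutathione peroxidase of gut and airway epithelium, went from 14.2, 10.3 and 20.3 TPM to 609 and 1049 TPM (log2 fold change 5.70, SE 0.33, adjusted p = 9.15e-05), and Prdx1, a peroxide scavenger, from 499.7, 482 and 544 TPM to 1488 and 1602 TPM. Gclc, which starts glutathione synthesis, was at 363, 412 and 554 TPM and 377 and 155 TPM and did not pass, and Fth1, the ferritin heavy chain, fell from 2861, 2787 and 3335 TPM to 1581 and 1224 TPM. Of 27 targets of p53 16 rose and 3 fell (16 and 5 without organoid 1); Bax, which starts apoptosis, went from 74.95, 72.0 and 75.2 TPM to 158 and 179 TPM and the gene of p53, Trp53, from 26.6, 27.3 and 22.5 TPM to 55.9 and 45.8 TPM. Cdkn1a, the best-known target, was among the falls.

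Mitotic genes were higher in both organoids. Of 41 genes of G2 and mitosis 35 rose and 0 fell (median 1.24). Mki67, the proliferation marker Ki-67, was at 18.1, 22.1 and 19.7 TPM in AT2 cells and 77.8 and 53.4 TPM in the organoids (log2 fold change 1.65, SE 0.18, adjusted p = 0.000656). Top2a, which untangles chromosomes, was at 34.9, 37.0 and 37.4 TPM and 112 and 85.0 TPM (log2 fold change 1.40, SE 0.14, adjusted p = 0.000441), and Ccnb1, the mitotic cyclin B1, at 18.0, 19.9 and 18.1 TPM and 71.4 and 56.5 TPM (log2 fold change 1.72, SE 0.13, adjusted p = 0.000203). The groups did not overlap in these 3 genes. Cdc20, which activates the destruction of cyclin B, was the exception at 79.6, 79.1 and 74.2 TPM and 79.9 and 48.4 TPM (log2 fold change -0.31, SE 0.21, adjusted p = 0.227). Fresh AT2 cells held these 4 genes at 18.0 to 79.6 TPM.

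Genes of G1 and S phase moved less. Of 40 tested 15 rose and 3 fell (median 0.34), that is 37.5% rises and 7.5% falls against 39.6% and 24.3% of all genes. Without organoid 2 the counts were 27 and 3, and without organoid 1 they were 11 and 7. Ccnd3, cyclin D3, fell from 195, 194 and 179.6 TPM to 56.3 and 53.3 TPM (log2 fold change -1.77, SE 0.092, adjusted p = 7.39e-05), and its relative Ccnd2 rose from 11.04, 13.7 and 10.2 TPM to 36.1 and 172 TPM (log2 fold change 2.67, SE 0.60, adjusted p = 0.00947). Tk1, thymidine kinase, rose from 22.6, 23.1 and 20.7 TPM to 60.6 and 49.2 TPM. Pcna, the replication clamp, was at 282, 307 and 289.7 TPM and 276 and 216 TPM and did not pass. Among inhibitors of the cycle, Cdkn2a, a marker of cells in long culture, went from 0.411, 0.107 and 0 TPM to 18.5 and 56.2 TPM (log2 fold change 4.85, SE 0.45, adjusted p = 0.00037), and Cdkn2b from 14.5, 11.9 and 13.6 TPM to 39.9 and 56.2 TPM. Cdkn1a and Cdkn2d fell, so that of 7 such inhibitors 2 rose and 2 fell; without AT2 library 2 or 3 the fall of Cdkn2d did not pass (adjusted p 0.0662 and 0.0632).

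Promoters of mitotic genes often carry the element TTTGAA, which the DREAM complex binds when it silences them outside division. The windows of 2 of the listed genes with the largest rises that hold it are shown as above, with TTTGAA or its reverse complement TTCAAA in capitals.
Cdk1 (chr10:69352863-69353162, minus strand): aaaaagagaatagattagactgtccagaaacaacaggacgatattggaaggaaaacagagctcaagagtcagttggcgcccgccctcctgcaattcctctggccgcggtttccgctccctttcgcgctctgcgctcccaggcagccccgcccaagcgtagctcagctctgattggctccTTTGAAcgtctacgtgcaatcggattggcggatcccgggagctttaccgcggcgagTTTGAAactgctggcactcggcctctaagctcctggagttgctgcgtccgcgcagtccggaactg
Cenpa (chr5:30666636-30666935, plus strand): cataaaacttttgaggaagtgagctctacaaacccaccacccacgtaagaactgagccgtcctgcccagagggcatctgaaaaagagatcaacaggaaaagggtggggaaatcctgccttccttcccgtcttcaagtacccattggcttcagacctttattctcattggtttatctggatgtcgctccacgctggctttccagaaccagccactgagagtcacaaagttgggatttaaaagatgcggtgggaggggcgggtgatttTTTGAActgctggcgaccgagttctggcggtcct
Cdk1, the kinase that drives mitosis, was at 10.3, 8.81 and 9.29 TPM in AT2 cells and 42.9 and 34.1 TPM in the organoids, and Cenpa, the histone of centromeres, at 10.96, 12.7 and 13.4 TPM and 52.2 and 44.7 TPM. The table held 35 windows for 33 of the 41 genes, and 28 windows (80.0%) in 26 genes had the element, against 17.9% of all windows and 12.1% of the windows of genes tested.

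Immediate early genes were far higher in the sorted cells. Of 27 tested 22 fell and 2 rose in the organoids (median -2.16). Fos was at 805, 1083 and 1044 TPM in AT2 cells and 11.6 and 22.7 TPM in the organoids (log2 fold change -5.81, SE 0.28, adjusted p = 6.57e-05), and Jun, its partner, at 905, 1554 and 1401 TPM and 62.3 and 61.6 TPM (log2 fold change -4.32, SE 0.23, adjusted p = 8.12e-05). Egr1, a growth factor-induced transcription factor, was at 375, 344 and 285 TPM and 16.4 and 43.5 TPM (log2 fold change -3.58, SE 0.38, adjusted p = 0.000574). Dusp1, a phosphatase that ends stress kinase signals, fell from 578, 469 and 469 TPM to 34.5 and 27.1 TPM (log2 fold change -3.99, SE 0.15, adjusted p = 3.18e-05), and Atf3, a stress-induced repressor, from 340.4, 876 and 766 TPM to 11.4 and 8.01 TPM. AT2 library 1 was lowest of the 3 in Fosb, Jun, Atf3 and Zfp36, and was still above both organoids in each. Ier3 and Egr3 rose.

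Genes that respond to glucocorticoid hormone fell as well, 10 of 14, with 2 rises (median -1.77). Sult1a1, a sulfotransferase, went from 103, 117 and 111 TPM to 5.86 and 4.17 TPM (log2 fold change -4.22, SE 0.15, adjusted p = 2.81e-05), Klf9, a transcription factor, from 74.1, 118 and 80.4 TPM to 13.4 and 13.9 TPM, and Tsc22d3, an inhibitor of inflammation, from 93.5, 93.8 and 72.5 TPM to 27.4 and 28.7 TPM. Dusp1, Errfi1 and Per1 stand on this list and on others. The metallothionein Mt2 went the other way, from 74.5, 115 and 151 TPM to 829 and 1049 TPM (log2 fold change 3.09, SE 0.29, adjusted p = 0.000403). Stress chaperones divided: of 10 heat shock genes 2 rose and 4 fell, with 1 rise without AT2 library 1 or 2, and 1 rise and 1 fall without organoid 1. Of 18 genes of the unfolded protein response 5 rose and 7 fell, and 3 rises passed without AT2 library 1 or 2. Dnajb9, a chaperone of the endoplasmic reticulum, fell from 267, 462 and 433 TPM to 38.7 and 49.9 TPM, while Xbp1, the transcription factor of secretory cells, rose from 196, 192 and 200.3 TPM to 497 and 653 TPM (log2 fold change 1.53, SE 0.13, adjusted p = 0.000297).

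Genes of antigen presentation by MHC class II fell to a small part of their level in fresh cells. AT2 cells, unlike most epithelia, hold this machinery at steady state, and the coactivator CIITA switches its genes on together. All 8 of the 9 listed genes that were tested fell (median -3.48); H2-Oa lay under the filter. H2-Aa, an antigen-binding chain (chr17:34282744-34287823), was at 1696, 1666 and 1709.5 TPM in AT2 cells, 69.4 TPM in organoid 1 and 5.87 TPM in organoid 2 (log2 fold change -6.26, SE 0.89, adjusted p = 0.00162). Its partner H2-Ab1 was at 1342, 1432 and 1536 TPM and 170.0 and 95.1 TPM (log2 fold change -3.48, SE 0.24, adjusted p = 0.000154). Cd74, the invariant chain that guides these molecules, was at 5444, 5768 and 6045 TPM and 637 and 126 TPM (log2 fold change -4.33, SE 0.62, adjusted p = 0.00171). Ciita was at 17.7, 17.6 and 20.4 TPM and 6.84 and 1.16 TPM (log2 fold change -2.25, SE 0.51, adjusted p = 0.00945). For every one of the 8 genes organoid 2 lay below organoid 1. The list summed to 9364, 9800.4 and 10237 TPM in AT2 cells and to 981 and 246 TPM in the organoids. Leukocytes also make these genes, and their marker Ptprc went from 3.37, 0.999 and 2.24 TPM in AT2 cells to 0.0830 and 0.0566 TPM, a fall that did not pass without either organoid (adjusted p 0.0589 and 0.0568); the part of leukocytes in the list was not tested.

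The promoters of the 2 genes with the largest falls that hold the Y box CTGATTGG, one of the elements at which the CIITA complex assembles, are shown as above with CTGATTGG or its reverse complement CCAATCAG in capitals. The box includes ATTGG, the CCAAT box read on the other strand.
H2-Aa (chr17:34287774-34288073, minus strand): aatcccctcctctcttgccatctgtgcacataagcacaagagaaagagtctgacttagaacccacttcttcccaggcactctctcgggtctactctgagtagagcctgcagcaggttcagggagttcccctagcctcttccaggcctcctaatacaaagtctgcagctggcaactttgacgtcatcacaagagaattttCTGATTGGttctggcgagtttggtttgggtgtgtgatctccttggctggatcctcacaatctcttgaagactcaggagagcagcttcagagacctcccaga
H2-Eb1 (chr17:34305617-34305916, plus strand): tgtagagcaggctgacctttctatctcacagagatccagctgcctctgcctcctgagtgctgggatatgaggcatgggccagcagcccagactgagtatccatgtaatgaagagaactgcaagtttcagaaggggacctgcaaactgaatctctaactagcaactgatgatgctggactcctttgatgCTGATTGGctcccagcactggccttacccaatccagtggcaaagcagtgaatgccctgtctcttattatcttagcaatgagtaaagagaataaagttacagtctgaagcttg
H2-Eb1 was at 536, 581 and 584 TPM in AT2 cells and 34.1 and 3.12 TPM in the organoids. The table held 7 windows for 6 of the 9 genes, and 3 windows (42.9%) had the box, against 4.1% of all windows and 5.54% of those of genes tested.

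Other immune genes moved in both directions. Of 26 interferon-stimulated genes 5 rose and 10 fell (median -0.12), and without organoid 2 the counts were 8 and 7. Psmb9, an immunoproteasome subunit, fell from 34.2, 29.5 and 37.3 TPM to 9.39 and 8.97 TPM, and the antiviral Ifit1 rose from 0.641, 1.08 and 0.932 TPM to 8.75 and 13.1 TPM. Of 28 acute phase and chemokine genes 11 rose and 12 fell. Ccl20, which attracts lymphocytes to mucosa, rose from 3.46, 3.58 and 6.57 TPM to 262 and 199 TPM (log2 fold change 5.42, SE 0.27, adjusted p = 6.61e-05). Cxcl5, which attracts neutrophils, rose from 3.89, 1.15 and 8.09 TPM to 1066 and 252 TPM, and Saa3, serum amyloid A3, from 4.47, 2.39 and 3.44 TPM to 1609.8 and 290.4 TPM; in both organoid 1 was the higher. Hp, haptoglobin, fell from 1563, 1406 and 1782 TPM to 276 and 262 TPM, and Il6 from 9.61, 17.5 and 20.9 TPM to 0.183 and 0 TPM. Of 12 complement genes 3 rose and 6 fell; Cfb went from 4.02, 1.70 and 2.99 TPM to 139 and 35.6 TPM against the fall of Hc.

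Falls outnumbered rises in the lists of lipid synthesis and lipolysis, but not in that of cholesterol. Of 25 genes of fatty acid and phospholipid synthesis 7 rose and 12 (48.0%) fell (median -0.51). Elovl1, which makes very long chains, fell from 2300.3, 1922 and 1666 TPM to 205 and 118 TPM (log2 fold change -3.64, SE 0.26, adjusted p = 0.000165), and Elovl6, which extends palmitate, rose from 0.283, 0.312 and 0.290 TPM to 24.5 and 31.2 TPM (log2 fold change 4.47, SE 0.16, adjusted p = 2.88e-05). Fasn, fatty acid synthase, was at 826, 916 and 841 TPM and 667 and 259 TPM (log2 fold change -1.05, SE 0.37, adjusted p = 0.0478); the call did not hold without any 1 of the AT2 libraries (adjusted p 0.102 to 0.126). Of 16 lipid droplet and lipolysis genes 1 rose and 10 (62.5%) fell (median -0.9977). Mgll, a lipase for monoglycerides, went from 24.3, 22.4 and 21.3 TPM to 0.0360 and 0.104 TPM (log2 fold change -4.46, SE 0.14, adjusted p = 2.81e-05), Lpl, lipoprotein lipase, from 37.0, 31.2 and 27.1 TPM to 1.93 and 0.569 TPM, and the droplet lipase Pnpla2 from 133, 164 and 149 TPM to 28.4 and 16.3 TPM. Hilpda, an inhibitor of Pnpla2 that low oxygen induces, was the riser, from 6.38, 4.27 and 3.27 TPM to 34.4 and 39.3 TPM. Of 22 cholesterol genes 6 rose and 5 fell. Both counts depended on single libraries: there were 4 rises and 7 falls without organoid 1, 6 and 1 without organoid 2, and 4 and 2, 4 and 1, and 6 and 1 without AT2 library 1, 2 or 3.

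Lysosomal genes had more falls than rises, and junction genes more rises than falls. Of 31 lysosome and lamellar body genes 7 rose and 12 fell: Npc1, a lysosomal cholesterol exporter, went from 158, 174 and 139 TPM to 17.7 and 12.7 TPM, and Ctsd, the protease cathepsin D, from 240.1, 236 and 245 TPM to 1388 and 1394 TPM (log2 fold change 2.53, SE 0.089, adjusted p = 2.81e-05). Of 24 ion and water transport genes 10 rose and 10 fell. Kcnj15, a potassium channel, fell from 278, 295 and 298 TPM to 21.6 and 12.1 TPM, and the water channel Aqp4 rose from 0.548, 0.426 and 0.366 TPM to 65.8 and 314 TPM. Of 32 tight junction and adhesion genes 19 rose and 2 fell (median 0.99), or 20 and 4 without organoid 1. Cldn18, the claudin of the alveolus, fell from 645, 669.6 and 637 TPM to 54.5 and 12.9 TPM (log2 fold change -4.55, SE 0.53, adjusted p = 0.000804). Dsc2, a desmosomal cadherin, rose from 0.0218, 0.0790 and 0.0424 TPM to 31.1 and 122.7 TPM, and Lama5, a basement membrane laminin, from 28.7, 33.5 and 29.5 TPM to 182 and 176 TPM (log2 fold change 2.52, SE 0.11, adjusted p = 3.87e-05). Of 24 collagen and matrix genes 10 rose and 10 fell; Col6a2 went from 41.3, 42.5 and 49.9 TPM to 0.399 and 0.101 TPM.

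Signalling genes moved in both directions. Of 28 WNT genes 10 rose and 7 fell, or 13 and 11 without organoid 1. Nkd1, a target and inhibitor of the pathway, fell from 158, 218 and 225 TPM to 0.820 and 0.338 TPM (log2 fold change -6.99, SE 0.21, adjusted p = 2.81e-05), and Notum, which inactivates WNT ligands, from 13.8, 13.8 and 11.2 TPM to 0.322 and 0.690 TPM. Lgr5, a receptor that strengthens WNT signals, rose from 0, 0.0174 and 0.0372 TPM to 4.49 and 3.56 TPM, and the ligand Wnt4 from 0.313, 0.174 and 0.411 TPM to 7.21 and 18.2 TPM. Of 28 genes of the EGF and FGF pathways 11 rose and 10 fell. Among their transcription factors Etv4 rose from 0.959, 0.777 and 1.13 TPM to 44.6 and 55.0 TPM (log2 fold change 4.70, SE 0.16, adjusted p = 2.81e-05) and Etv1 from 0.988, 1.08 and 0.854 TPM to 14.0 and 23.2 TPM, opposite to Etv5. The receptor Fgfr2 was at 318, 327 and 251 TPM and 211 and 103 TPM (log2 fold change -1.0020, SE 0.30, adjusted p = 0.0275; 0.0768 without organoid 2 and 0.0801 and 0.0884 without AT2 library 1 and 2), and the feedback inhibitor Spry1 fell from 224, 276 and 228 TPM to 80.7 and 51.6 TPM. Of 30 BMP and TGF-beta genes 15 rose and 5 fell (median 0.58). The BMP targets parted, Id1 rising from 38.9, 26.3 and 24.6 TPM to 80.2 and 96.9 TPM and Id3 falling from 33.5, 26.5 and 21.4 TPM to 6.36 and 5.19 TPM.

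Reported targets of let-7, the microRNA intact in these controls, gave 16 rises (51.6%) and 4 falls (12.9%) of 31 tested, against 39.6% and 24.3% of all genes. After median-ratio scaling the counts were 14 and 7, after quantile normalization 12 and 7, and without an AT2 library 12 or 13 and 2. Hmga2, a chromatin protein of fetal and tumour cells, was at 0.109, 0.492 and 0.385 TPM and 2.50 and 11.04 TPM (log2 fold change 2.30, SE 0.51, adjusted p = 0.00877), and Igf1r, the receptor of insulin-like growth factor, at 0.790, 0.822 and 0.598 TPM and 13.2 and 28.5 TPM. Ezh2, a histone methyltransferase, was at 18.3, 17.1 and 13.9 TPM and 23.0 and 23.2 TPM (log2 fold change 0.47, SE 0.14, adjusted p = 0.028), a call lost after median-ratio scaling (adjusted p = 0.144) and without either organoid (0.092 and 0.0918) or AT2 library 2 or 3 (0.0668 and 0.0694), and Bach1, a repressor of antioxidant genes, fell from a mean of 39.7 TPM to 26.4 and 22.1 TPM (log2 fold change -0.68, SE 0.16, adjusted p = 0.0108; 0.0653 without organoid 2). Lin28b and Igf2bp3, further fetal targets, were at or below 0.306 TPM in all 5 libraries. Circadian genes gave 5 rises and 6 falls of 17, with 3 rises without organoid 2 or AT2 library 1; Nr1d1, a repressor of the clock, was at 132, 194 and 132 TPM and 16.1 and 26.4 TPM.

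Markers of several other lung cells, but not of all, were low in AT2 cells against whole lung. The neuroendocrine genes summed to 25.45, 30.96 and 17.47 TPM in AT2 cells and 31.24 to 32.22 TPM in whole lung. Neutrophil genes summed to 444.2 to 467.0 TPM and 835.7 to 1478.8 TPM. The interstitial macrophage and monocyte genes summed to 45846 to 50674 TPM in AT2 cells and 10723 to 11210 TPM in whole lung. Nearly all of the sum in AT2 cells was Lyz2, which is also a listed AT2 gene and alone was at 45736 to 50568 TPM. Many markers passed the filter only through the fresh cells, so levels are given here in place of counts. The 14 alveolar macrophage genes summed to 111, 71.5 and 103 TPM in AT2 cells and 10.02 and 10.52 TPM in the organoids, against 1868 to 2083 TPM in whole lung; Chil3, a chitinase-like protein of these cells, was at 28.7, 14.8 and 34.3 TPM in AT2 cells and listed at 0 in both organoids. The 17 endothelial genes summed to 93.5, 32.9 and 33.8 TPM in AT2 cells and 23.0 and 24.6 TPM in the organoids. Whole lung held 4371 to 5022 TPM, and AT2 library 1 was the highest of the AT2 libraries. Cdh5 was listed at 0 and 0.016 TPM in the organoids and Pecam1 at 0.0971 and 0.0981 TPM, so other members make up the sums there. In this list 1 member rose. The 14 general leukocyte genes overlapped between the groups in their sum, at 258, 185 and 213 TPM in AT2 cells and 238 and 205 TPM in the organoids. Among them Ptprc was near 0 in the organoids, while Arhgdib, a regulator of small GTPases, rose from 5.53, 3.66 and 5.32 TPM to 34.1 and 129 TPM. The 18 fibroblast genes summed to 856, 793 and 668 TPM in AT2 cells and 327 and 434 TPM in the organoids, against 6344 to 7117 TPM in whole lung. Col1a2 was listed at 0 in both organoids. Dcn was the 1 member of the list that rose. Its call did not pass without AT2 library 2 (log2 fold change 1.29, adjusted p = 0.0507) or AT2 library 3 (1.39, adjusted p = 0.05475). Col1a1, under the filter, was at 4.02, 0.825 and 0.780 TPM in AT2 cells and then 0.229 and 0.173 TPM. The haemoglobin gene Hba-a1, which has a near-identical copy, was at 58.0, 102 and 33.9 TPM in AT2 cells and listed at 0 in both organoids. The lymphocyte gene Cd79b, the one of its list above the filter, was at 33.0, 31.8 and 30.9 TPM and 11.6 and 4.37 TPM. Of the smaller lists, few genes reached the filter: 7 of 14 for interstitial macrophages and monocytes, 4 of 12 for smooth muscle, 4 of 8 for mesothelium, 5 of 10 for neuroendocrine cells, 4 of 9 for neutrophils and 6 of 20 for gastrointestinal epithelium.

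Between the organoids, 490 genes (3.78%) were over 2-fold higher and 388 (2.99%) over 2-fold lower in organoid 2 than in organoid 1; with a single library each there is no test. Organoid 2 was lower in 33 of 36 AT2 genes (median difference -1.45 on the log2 scale) and in all 8 of the MHC class II genes (-1.98). It was higher in all 12 basal genes (1.19) and in 13 of 20 airway secretory genes (0.68). It was lower in 40 of 41 mitotic genes (-0.32), 37 of 40 genes of G1 and S phase (-0.50) and 21 of 22 cholesterol genes (-0.49). By these medians organoid 2 lay farther than organoid 1 from the fresh cells for AT2, basal and MHC class II genes and nearer to them for mitotic genes.

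**Figure D4:**
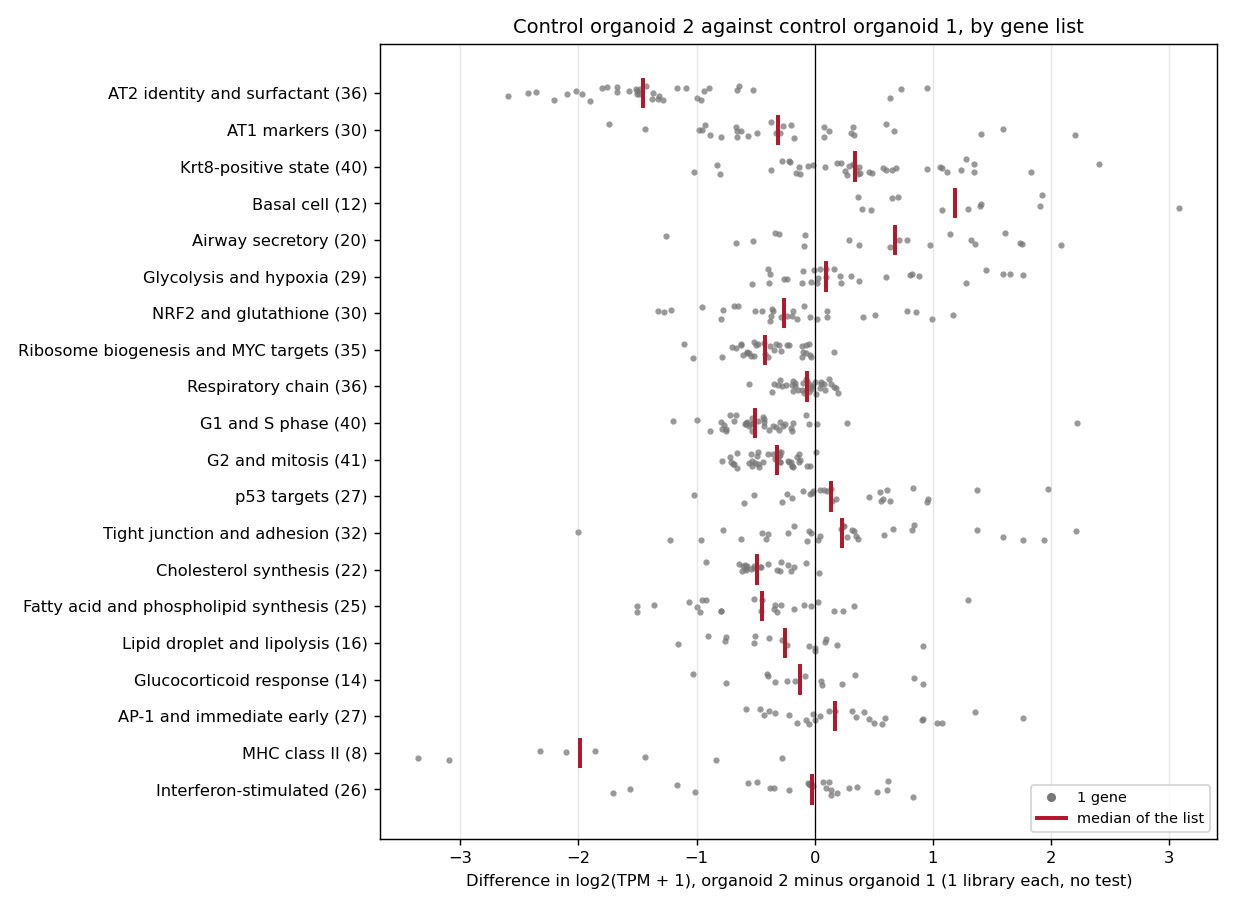
Difference in log2(TPM + 1) between control organoid 2 and control organoid 1 for the genes of the same 20 lists; each dot is 1 gene and the red bar the median of the list, with 1 library on each side and no test. The medians run from -1.98 for MHC class II to 1.19 for basal cell genes.

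The comparison was repeated in the knockout libraries, which share no library with the controls. It is no independent replication: both genotypes came in the same tables, and the organoids may share a culture batch. Differences of table, sort and culture are therefore repeated there. There 5244 of 12780 genes (41.0%) were higher and 3478 (27.2%) lower in organoids. Of 7918 genes called in controls and tested in knockouts, 6249 (78.9%) were called in the same direction and 117 in the opposite one. The contrast itself differed between the genotypes for 2110 of 13367 genes (15.8%; interaction term in limma, adjusted p under 0.05). Fos fell more in knockouts (log2 fold change -7.03, against -5.81 in controls; adjusted p of the difference = 0.049). Etv5 fell less (-0.53 against -1.82; adjusted p = 0.0145), and Hopx was 1.93 against 0.42 (adjusted p = 0.0152).

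Basal genes were lower in the knockout organoids than in the control organoids for each gene given here. The knockout organoids held Trp63 at 6.14 and 5.61 TPM, against 34.8 and 93.6 TPM in the control organoids, and the contrast differed between genotypes, as it did for 15.8% of all genes (2.46 against 5.59; adjusted p = 0.00539). Krt5 was at 54.9 and 59.8 TPM, Krt15 at 12.04 and 11.8 TPM and Krt14 at 1.69 and 1.51 TPM in the knockout organoids, and the list summed to 164 and 167 TPM, against 1740.1 and 3555 TPM in the control organoids. For Sftpc the contrast was -0.95 in knockouts and -3.39 in controls, a difference that did not pass (adjusted p = 0.132); the knockout organoids held 59558 and 51384 TPM. H2-Aa, at 13.9 and 7.91 TPM there, Mki67, at 90.9 and 104 TPM, and Jun, at 34.5 and 33.5 TPM, did not differ in their contrast beyond the threshold (adjusted p 0.767, 0.387 and 0.409). By list, the knockout comparison gave 23 rises and 1 fall for glycolysis and hypoxia, 40 and 1 for mitosis, 4 and 24 for AT2 genes, 0 and 8 for MHC class II, and 7 and 1 for basal cells; differences between genotypes were not tested by list.

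**Figure D5:**
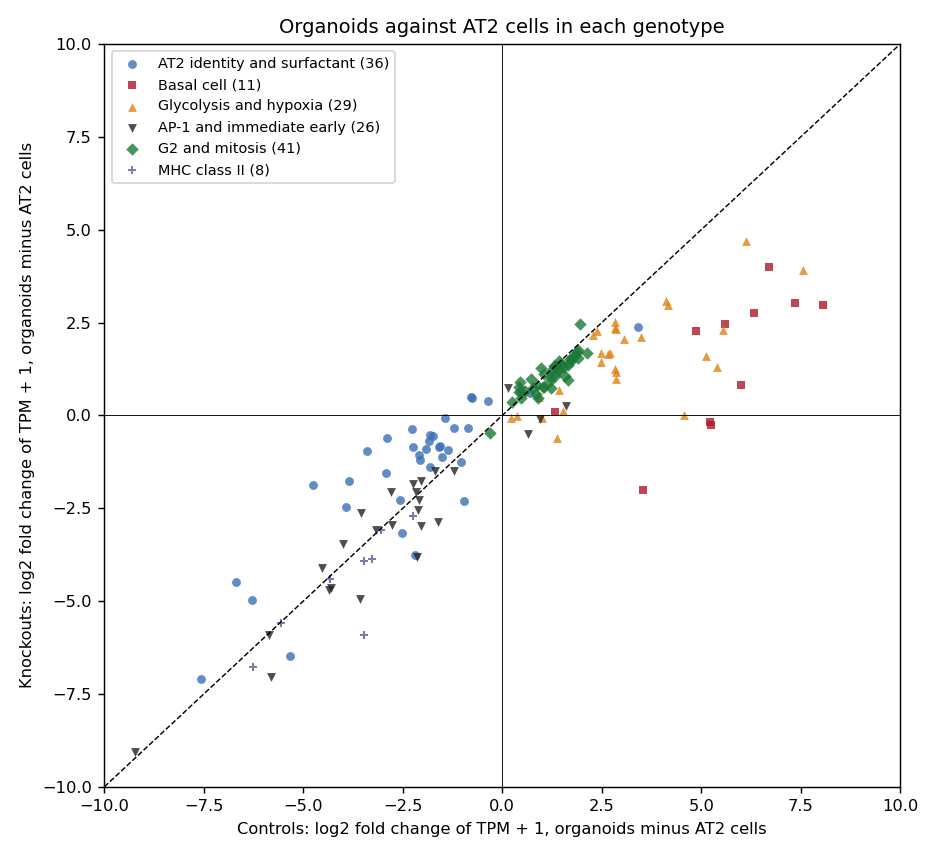
Log2 fold change of TPM + 1 of organoids against AT2 cells in controls (horizontal) and in knockouts (vertical) for the genes of 6 lists tested in both genotypes; each point is 1 gene and the dashed line marks equal values. Mitotic genes lie close to the line, while Trp63, Krt5 and the other basal genes lie below it.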

How the data were processed

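RNA-seq libraries of poly(A)-selected, unstranded mouse RNA were deposited by the authors as TPM per gene symbol; per the submitters' processing notes the build was GRCm38. The aligner and quantifier are not stated there. AT2 cells and organoids came in separate tables of 24972 rows, matched by symbol (24970 unique; 2 rows dropped). Control organoids (n = 2) were compared with control AT2 cells (n = 3) by limma 3.58.1 (R 4.3.3) on log2(TPM + 1), with a variance trend and Benjamini-Hochberg adjustment over all genes at 1 TPM or more in 2 libraries. All adjusted p-values are from that fit, or from its alternatives; without an organoid the filter asked for 1 library. Other steps used Python 3.11.15 and pandas 2.3.3. The fit was also run on simulated libraries with the AT2 profile and the same spread per gene in both groups. The real organoids differed more from each other than the AT2 libraries did, so that run cannot vouch for this comparison. Alternatives varied pseudocount, filter, scaling, trend, library weights, block, the groups fitted and the libraries left out. Named were the 15 largest rises and falls (at least 10 TPM on average where higher, groups not overlapping), up to 4 members per list and a fixed set; 76 genes were added after their values were seen. Comparison, lists and genes were chosen with earlier results of these data known. Promoters are from RefSeq (GRCm38.p6).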

Additional observations from a re-analysis of the deposited data

Results flagged for a closer look

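The contrast of organoids against AT2 cells differed between the genotypes, by the interaction term in limma, for 4 of the genes followed throughout. For Etv5 the knockout contrast minus the control contrast was 1.29 on the log2 scale (control -1.82, knockout -0.53, adjusted p = 0.0145). For Hopx it was 1.51 (control 0.42, knockout 1.93, adjusted p = 0.0152), for Fos -1.22 (control -5.81, knockout -7.03, adjusted p = 0.049) and for Trp63 -3.13 (control 5.59, knockout 2.46, adjusted p = 0.00539). Each contrast rests on 2 organoid libraries per genotype.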

How the results depend on the processing

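Leaving out 1 library at a time gave 4240 to 5110 genes higher and 2468 to 3357 lower, and 2595 and 1640 remained when a change of more than 2-fold was also asked for. Of 302 named genes in the fit 289 passed and 265 of these passed in every setting that gave a value. Cdc20, which did not pass, ran from -0.67 without organoid 1 (adjusted p = 0.00424) to 0.042 without organoid 2 (0.665). List medians near 0 changed sign under median-ratio scaling, quantile normalization and the removal of the most abundant genes: CDK inhibitors to -0.075, -0.011 and -0.064, WNT genes to -0.15, -0.079 and -0.14, and collagen and matrix genes to -0.10, -0.24 and -0.21. The mesothelial median changed to -0.093 under quantile normalization and to -1.33 without the most abundant genes. Replicate numbers were taken only as names here, since the labels link no organoid library to an AT2 library by mouse. Deviations of same-numbered libraries correlated at -0.12 and -0.099. With the replicate block 3703 genes were higher and 2366 lower. Depth is unknown, so no limit of detection could be given.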
